A study of Mus musculus with 12 samples.

Results

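The genes that glia use to carry and export lipid were followed across 12 RNA-seq libraries of mouse brain cells: the apolipoprotein genes Apoe, Apoc1, Clu and Apod, and the exporter genes Abca1 and Abcg1. They were taken by gene name from a table of 55862 entries, and all 6 were among the 15747 genes with enough signal to be tested. The libraries, all of strain C57BL/6, fall into 4 groups of 3. AST is labelled as astrocytes before incubation (0 days) and was the study's negative control. A-iSC is labelled as the 3D cell spheres made from astrocytes, at 5 days of incubation. P56-NSC and P0-NSC are labelled as 2 kinds of neural progenitors from the brain, called NPCs in the design text, and were its positive controls. P56 and P0 in their titles are the usual notation for postnatal age in days. By that notation P56-NSC is adult and P0-NSC newborn, so these groups also differ in age. No genotype, brain region, sorting step, medium or passage is given for any group in the sources used here. Whether replicate libraries stem from separate animals or cultures is not stated either. The p-values hold for the spread among the deposited libraries, and part of that spread may be technical.

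In the brain, glia release lipoprotein particles on which apolipoproteins hold cholesterol and phospholipid in solution, and neurons and other cells take these up through lipoprotein receptors at the cell surface. ABC transporters such as ABCA1 and ABCG1 move sterol and phospholipid from the cell membrane onto the apolipoprotein. Their genes and Apoe are textbook targets of the liver X receptors, which are nuclear receptors that respond to oxysterols. Astrocytes are the best-known source of apolipoprotein E in the brain, and microglia also make it.

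Values are FPKM, fragments per kilobase of gene and per unit of sequencing depth as scaled by the authors, so levels may be compared between genes. Depth was 17077780 to 24452419 reads per library, where a single read per kilobase corresponds to 0.0343 to 0.0623 FPKM. Differences are in log2(FPKM + 1), with a standard error (SE) and a limma adjusted p, and a gene was called at an adjusted p below 0.05. The pseudocount of 1 understates the change of low genes. AST 2, A-iSC 1 and A-iSC 2 were high in short genes relative to their group (Spearman correlations of deviation with gene length of -0.45, -0.28 and -0.23). AST 1, AST 3 and A-iSC 3 were high in long genes (0.36, 0.39 and 0.33), so AST 2 and A-iSC 3 stood apart within their groups.

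The marker genes of the labelled cell types were read in the same libraries. None of the 10 astrocyte markers was at 0 in AST, but their summed level was lower there (157 to 176 FPKM) than in A-iSC (1310 to 2610 FPKM), P56-NSC (3972 to 4377 FPKM) or P0-NSC (341 to 410.4 FPKM). The sum hides a split in P0-NSC against AST, where 5 of the 10 were called higher and 4 lower, beside 35.9% and 38.3% of all tested genes. The 8 markers of neural stem and progenitor cells summed to 114 to 142 FPKM in P56-NSC, below the 350.1 to 374 FPKM of AST, and Nes was at 3.76 ± 0.25 FPKM in P56-NSC against 196 ± 13.4 FPKM in AST (SD, n = 3). In P56-NSC the 10 oligodendrocyte lineage markers summed to 11631 to 13261 FPKM and the mitochondrial genome took 16.5% to 17.6% of reads. In AST the 8 fibroblast and mural markers summed to 1881 to 2267 FPKM, led by Acta2 at 1848 ± 231 FPKM, with 4 of them below 1 FPKM. In P0-NSC the 7 choroid plexus markers summed to 749.5 to 3849 FPKM. All 4 group names are therefore used here for the labels alone. In bulk libraries, fewer cells of a type and less RNA per cell cannot be told apart.

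Apoe stood far above the other 5 genes in A-iSC, where it was the most abundant transcript outside the mitochondrial genome in each of the 3 libraries. Apoc1, Clu and the exporters were also higher in A-iSC than in AST, while Apod was high in P56-NSC and low in A-iSC. All 6 genes were called higher in A-iSC than in AST, a comparison in which 58.9% of all tested genes were called (28.1% higher, 30.8% lower). The plot of levels by library shows each gene's order of groups.

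**Figure D1:**
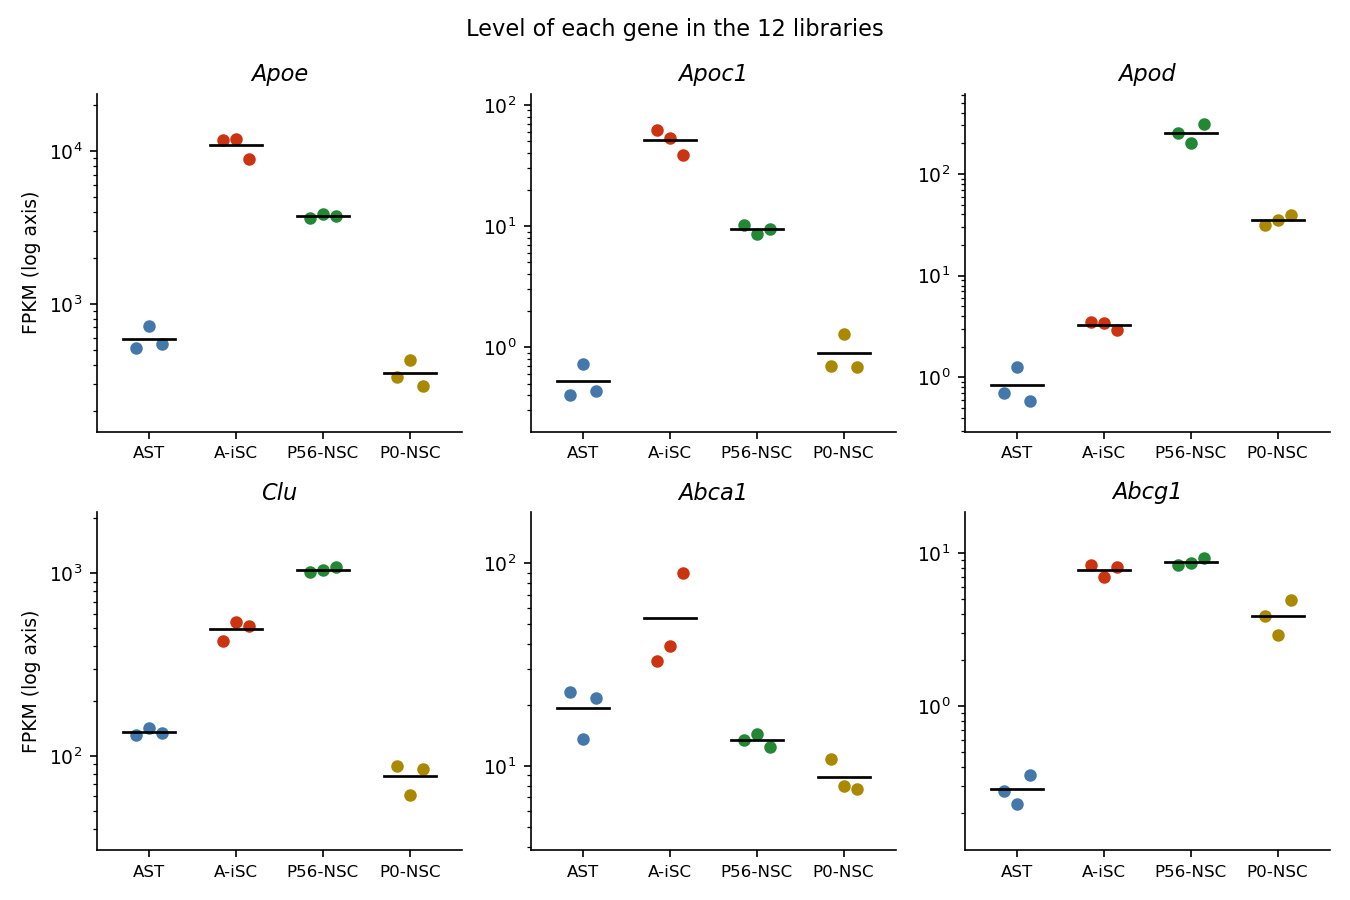
FPKM of each gene (log axis) in the 12 libraries, 1 point per library, by group, with a bar at the group mean. Apoe and Apoc1 are highest in A-iSC, Apod and Clu in P56-NSC, and the Abca1 point of A-iSC 3 lies at 89.7 FPKM, apart from the other A-iSC libraries.

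Apoe (ENSMUSG00000002985) encodes the main lipoprotein component made by astrocytes and lies on the minus strand of chromosome 7, from 19696109 to 19699188 (GRCm38). Its levels in the 3 AST libraries were 509.9, 711 and 547 FPKM. In A-iSC they were 11922, 11939 and 8835 FPKM. The A-iSC libraries were each above every other library of the series, and A-iSC 3 was the lowest of them. Levels were 3664, 3892 and 3777 FPKM in P56-NSC and 333, 426 and 291 FPKM in P0-NSC. The order of groups was thus A-iSC, P56-NSC, AST and P0-NSC, and no neighbouring groups in it overlapped. As a share of all reads, Apoe took 2.13% to 2.93% in A-iSC, 0.610% to 0.622% in P56-NSC, 0.107% to 0.143% in AST and 0.0713% to 0.108% in P0-NSC. Its rank outside the mitochondrial genome was 1 in each A-iSC library, 3 in each P56-NSC library, 39 to 48 in AST and 30 to 74 in P0-NSC.

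The 250 bases before the start of Apoe (GRCm38.p6, chr7:19699189-19699438, minus strand, RefSeq) are given because no other transcript outside the mitochondrial genome reached its level in A-iSC. Capitals in this and the later sequences mark any match, on either strand, to 1 of 4 short words. The first is the half-site that many nuclear receptors recognise, spelled AGGTCA. The GC box of many housekeeping promoters is spelled GGGCGG. The TATA box, which places the start of transcription, is searched as TATAAA. The E-box, a word bound by helix-loop-helix factors, is searched as CACGTG.
Apoe: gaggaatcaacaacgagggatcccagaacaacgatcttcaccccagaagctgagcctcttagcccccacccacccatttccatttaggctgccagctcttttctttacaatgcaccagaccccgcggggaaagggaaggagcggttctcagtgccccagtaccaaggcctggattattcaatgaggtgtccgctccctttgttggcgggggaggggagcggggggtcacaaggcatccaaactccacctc
None of the 4 words occurs in this window, which is 57.2% G and C. Among 32851 windows of 250 bases before gene starts, 14.0% held the half-site, 32.7% the GC box, 12.4% the TATA word and 6.02% the E-box. A match is a description of letters and not of a working site.

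Against AST, Apoe rose in A-iSC by 4.21 on the log2 scale (SE 0.21, limma adjusted p = 1.14e-08), an 18.5-fold ratio of mean FPKM. In P56-NSC the difference from AST was 2.69 (SE 0.21, limma adjusted p = 1.64e-07), or 6.41-fold. P0-NSC was lower than AST by a smaller amount, with a log2 difference of -0.75 (SE 0.21, limma adjusted p = 0.00576). That call was lost without the filter on low values (adjusted p = 0.0651), with quantile normalization (difference -0.13, adjusted p = 0.562) and with scaling by total reads (difference -0.46, adjusted p = 0.051). Adjusted p over the 24 alternatives for it ran from 0.00139 to 0.562.

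Apoc1 (ENSMUSG00000040564) encodes a small apolipoprotein of plasma lipoproteins that inhibits lipoprotein uptake and remodelling enzymes. It lies 3448 bases from Apoe on the same strand of chromosome 7, from 19689481 to 19692660. AST held 0.401, 0.729 and 0.434 FPKM, from 5, 11 and 6 reads. A-iSC held 62.2, 52.9 and 38.6 FPKM, from 932, 936 and 769 reads. The groups were far apart, with the lowest A-iSC library still above every library of the other groups. P56-NSC was intermediate, at 10.1, 8.54 and 9.47 FPKM, and P0-NSC was at 0.705, 1.29 and 0.683 FPKM. In the order A-iSC, P56-NSC, P0-NSC, AST, the last pair overlapped.

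Apoc1 rose in A-iSC against AST by 5.08 on the log2 scale (SE 0.17, limma adjusted p = 1.00e-09), and the ratio of mean FPKM was 98.2. P56-NSC exceeded AST by 2.77 (SE 0.17, limma adjusted p = 2.56e-08). The P0-NSC difference of 0.31 was not called (95% interval -0.07 to 0.69, limma adjusted p = 0.129). It was called under 4 of 24 alternatives (adjusted p 0.0214 to 0.61 over all of them), and quantile normalization gave -0.10. P0-NSC rested on 12, 28 and 14 reads. Apoe exceeded Apoc1 by 1169 ± 168-fold in AST and by 216 ± 20.6-fold in A-iSC (SD, n = 3), so the ratio of these neighbours was not fixed.

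The next genes along the cluster, Apoc4 and Apoc2, had reads in A-iSC alone. Apoc4 was at 0.626, 0.348 and 0.309 FPKM in A-iSC and had 0 reads in the other 9 libraries, where a count of 0 allows up to 0.0737 FPKM. Apoc2, the cofactor of lipoprotein lipase, had 1, 2 and 1 reads in A-iSC and 0 in the other 9, where up to 0.23 FPKM is allowed. These limits cover counting error only, and neither gene reached the filter for testing.

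Clu (ENSMUSG00000022037) encodes clusterin, also named apolipoprotein J, a secreted chaperone found on brain lipoproteins. It lies on the plus strand of chromosome 14, from 65968483 to 65981547. Levels were 131, 142 and 133 FPKM in AST and 428, 541 and 514 FPKM in A-iSC. P56-NSC held 1014, 1047 and 1084 FPKM, and P0-NSC held 88.0, 61.0 and 84.4 FPKM. Clu thus followed the order P56-NSC, A-iSC, AST and P0-NSC with no overlap between neighbours. It rose in A-iSC against AST by 1.85 (SE 0.15, limma adjusted p = 5.69e-07), or 3.65-fold, and it was higher in P56-NSC than in AST by 2.94 (limma adjusted p = 3.16e-09). P0-NSC was lower than AST by a log2 difference of -0.81 (SE 0.15, limma adjusted p = 0.000324), which quantile normalization reduced to -0.15 (adjusted p = 0.406, range over 24 alternatives 0.000194 to 0.406).

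Apod (ENSMUSG00000022548) encodes apolipoprotein D, a lipocalin that binds small hydrophobic molecules and, in the adult brain, is known from oligodendrocytes and astrocytes. It lies on the minus strand of chromosome 16, from 31296192 to 31314808. Levels were 0.694, 1.26 and 0.585 FPKM in AST, and 3.52, 3.44 and 2.95 FPKM in A-iSC. They were 253, 201.1 and 309 FPKM in P56-NSC and 31.5, 35.1 and 39.1 FPKM in P0-NSC. No 2 groups overlapped, and P56-NSC and P0-NSC both lay above AST and A-iSC. Apod rose in A-iSC against AST by 1.24 (SE 0.17, limma adjusted p = 5.25e-05). The differences from AST were 7.11 in P56-NSC (SE 0.17, limma adjusted p = 7.04e-12), a ratio of means of 300.2, and 4.31 in P0-NSC (SE 0.17, limma adjusted p = 5.52e-10), a ratio of 41.6.

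The 250 bases before Apod (GRCm38.p6, chr16:31314809-31315058, minus strand, RefSeq) are shown because Apod had the largest difference from AST among the 6 genes, in P56-NSC.
Apod: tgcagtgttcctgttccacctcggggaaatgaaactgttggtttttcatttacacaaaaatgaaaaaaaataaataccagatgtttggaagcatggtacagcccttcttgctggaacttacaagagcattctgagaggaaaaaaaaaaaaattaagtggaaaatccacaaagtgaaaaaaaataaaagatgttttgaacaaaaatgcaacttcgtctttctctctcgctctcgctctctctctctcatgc
This window is 36.4% G and C, against 57.2% for Apoe, and holds none of the 4 words either.

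Abca1 (ENSMUSG00000015243) encodes the transporter that loads cholesterol and phospholipid onto lipid-poor apolipoproteins. It is the longest of the 6 genes and lies on the minus strand of chromosome 4, from 53030787 to 53159895. The AST libraries held 23.1, 13.5 and 21.7 FPKM, and the A-iSC libraries 32.9, 39.0 and 89.7 FPKM. A-iSC 3 lay well above the other A-iSC libraries, and AST 2 below the other AST libraries. P56-NSC held 13.4, 14.4 and 12.4 FPKM, and P0-NSC 10.8, 7.95 and 7.68 FPKM. In the order A-iSC, AST, P56-NSC, P0-NSC, AST and P56-NSC overlapped, since AST 2 lay within the P56-NSC range.

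Abca1 rose in A-iSC against AST by 1.32 (SE 0.31, limma adjusted p = 0.00328), a ratio of means of 2.77. The libraries with the outlying Abca1 values were those that stood apart by gene length. Without A-iSC 3 the log2 difference was 0.88 (adjusted p = 0.00291), and without AST 2 and A-iSC 3 it was 0.66 (adjusted p = 0.0026). Over the 24 alternatives for this difference the call was kept, with adjusted p of 2.58e-05 to 0.0344. With a trend on gene length removed from each library, A-iSC 3 was still at 81.7 FPKM against 34.5 and 40.8 FPKM. P0-NSC was lower than AST by -1.04 (SE 0.31, limma adjusted p = 0.00987). The P56-NSC difference of -0.47 from AST was not called (95% interval -1.16 to 0.21, limma adjusted p = 0.191), but 4 of 24 alternatives called it. One of these left out A-iSC 3 (adjusted p = 0.0342), and another AST 2 and A-iSC 3 (difference -0.70, adjusted p = 0.000694). Adjusted p for it ran from 0.000694 to 0.944.

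The window before Abca1 (GRCm38.p6, chr4:53159896-53160145, minus strand, RefSeq) is shown as that of the exporter whose level varied most within A-iSC.
Abca1: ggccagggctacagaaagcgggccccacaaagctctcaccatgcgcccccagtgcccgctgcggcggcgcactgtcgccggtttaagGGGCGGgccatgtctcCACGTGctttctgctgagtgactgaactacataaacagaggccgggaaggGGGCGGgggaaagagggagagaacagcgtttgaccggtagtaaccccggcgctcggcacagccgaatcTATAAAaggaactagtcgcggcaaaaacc
It is 61.6% G and C. GC boxes begin at positions -163 and -97, an E-box at -147 and a TATA word at -29, counted back from the first base of the gene. The half-site does not occur in the exact spelling searched. Variant spellings were not searched, so a missing match does not show a missing site.

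Abcg1 (ENSMUSG00000024030) encodes a half-transporter that moves sterol toward lipidated particles. It lies on the plus strand of chromosome 17, from 31057675 to 31117988, where a small rRNA gene, Gm25447, overlaps it, so reads of the overlap cannot be told apart. AST held 0.278, 0.230 and 0.354 FPKM, and A-iSC 8.40, 6.99 and 8.08 FPKM. P56-NSC held 8.35, 8.65 and 9.29 FPKM, and P0-NSC 3.89, 2.91 and 4.92 FPKM. The AST libraries were low without exception, and the A-iSC and P56-NSC libraries overlapped at the top. Abcg1 rose in A-iSC against AST by 2.77 (SE 0.13, limma adjusted p = 1.01e-08), a ratio of means of 27.2. It was higher than in AST by 2.92 in P56-NSC (limma adjusted p = 1.48e-09) and by 1.91 in P0-NSC (limma adjusted p = 8.25e-08). Abca1 exceeded Abcg1 by 67.7 ± 13.4-fold in AST and by 6.87 ± 3.76-fold in A-iSC (SD, n = 3).

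Counted over the 6 genes, 6 were higher and 0 lower in A-iSC than in AST, where 58.9% of all tested genes were called (28.1% higher, 30.8% lower). The median log2 difference of the 6 was 2.32, against 0 over all tested genes. The 6 genes were chosen with earlier results of these data known, so these counts and medians are descriptions. In P56-NSC against AST, 5 were higher and 0 lower, with 74.1% of all genes called (37.1% higher, 37% lower). The medians were 2.85 for the 6 genes and -0.0042 for all genes. In P0-NSC against AST, 2 were higher (Apod and Abcg1) and 3 lower (Apoe, Clu and Abca1), with 74.2% of all genes called (35.9% higher, 38.3% lower). The medians there were -0.22 and -0.037. These comparisons share the AST libraries and are not independent of each other. With quantile normalization, 3 of the 6 genes were called in P0-NSC against AST, where that setting called 11530 of 15747 tested genes.

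**Figure D2:**
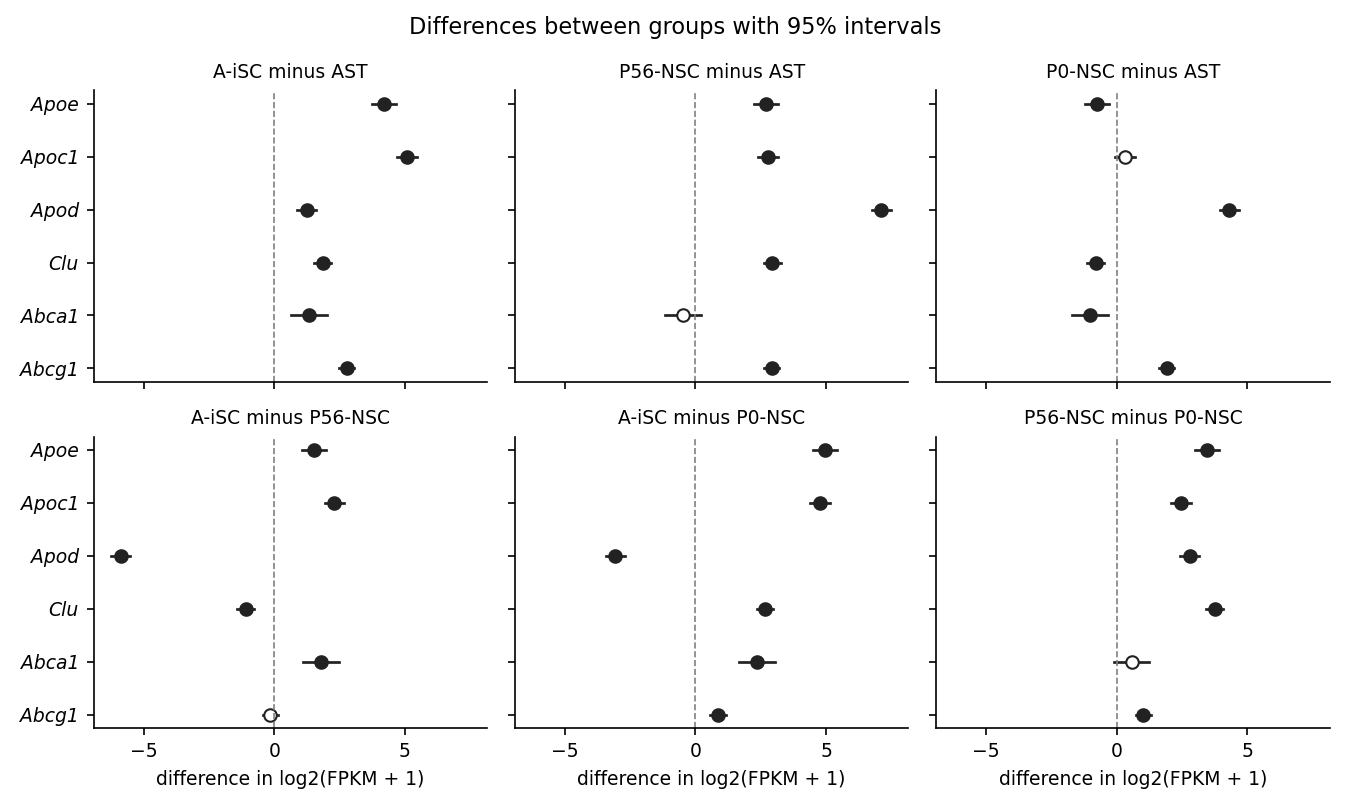
Difference in log2(FPKM + 1) for each gene in each of the 6 comparisons, with 95% intervals from limma. Filled points were called at an adjusted p below 0.05 and open points were not. Apoe, Apoc1, Clu and Abca1 move away from 0 to the right in A-iSC against P0-NSC, and Apod to the left.

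The A-iSC spheres were next compared with the groups labelled as positive controls. Against P56-NSC, Apoe, Apoc1 and Abca1 were higher in A-iSC and Clu and Apod were lower. The 3 higher and 2 lower genes stand beside 62.9% of all tested genes called in that comparison (31.5% higher, 31.3% lower). The medians were 0.68 for the 6 genes and 0.033 for all genes. Apoe was higher in A-iSC by 1.51 (SE 0.21, limma adjusted p = 4.48e-05), or 2.89-fold. Apoc1 was higher by 2.31 (SE 0.17, limma adjusted p = 2.33e-07). Clu was lower by a log2 difference of -1.09 (SE 0.15, limma adjusted p = 4.02e-05). Apod showed the largest gap, at -5.87 (SE 0.17, limma adjusted p = 5.43e-11), a mean 76.9-fold lower in A-iSC. For Abcg1 the difference of -0.15 was not called (95% interval -0.44 to 0.14, limma adjusted p = 0.354). Scaling by total reads turned it to 0.35 (adjusted p = 0.0301, range over 24 alternatives 0.0301 to 0.675). That scaling also moved the median of all genes by 0.44.

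Against P0-NSC, Apoe, Apoc1, Clu, Abca1 and Abcg1 were higher in A-iSC and Apod was lower. These 5 higher and 1 lower genes stand beside 67.3% of all tested genes called (32.6% higher, 34.7% lower). The medians were 2.51 for the 6 and -0.012 for all genes. Apoe was higher by 4.96 (SE 0.21, limma adjusted p = 1.40e-09), or 31.1-fold, and Apoc1 by 4.77 (SE 0.17, limma adjusted p = 4.67e-10). Clu differed by 2.66 (limma adjusted p = 1.44e-08), Abca1 by 2.36 (limma adjusted p = 3.14e-05) and Abcg1 by 0.86 (limma adjusted p = 0.000112). Apod was at a mean 10.7-fold below P0-NSC, a log2 difference of -3.07 (SE 0.17, limma adjusted p = 1.30e-08).

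Between P56-NSC and P0-NSC, 5 of the 6 genes were higher in P56-NSC than in P0-NSC and 0 were lower, with 69.2% of all tested genes called (35.3% higher, 33.9% lower). The medians were 2.63 and 0.0019. Differences were 3.45 for Apoe (limma adjusted p = 3.16e-08), 2.47 for Apoc1 (limma adjusted p = 1.25e-07), 3.75 for Clu (limma adjusted p = 8.46e-10), 2.80 for Apod (limma adjusted p = 2.99e-08) and 1.01 for Abcg1 (limma adjusted p = 2.92e-05). Abca1 did not pass, at 0.57 (95% interval -0.12 to 1.25, limma adjusted p = 0.127), although its groups did not overlap. The fit shares 1 estimate of spread over the 4 groups, and with these 2 groups alone the same difference gave an adjusted p of 0.00494. It was 0.0156 without A-iSC 3. Over 24 alternatives 5 called it, with adjusted p of 0.00141 to 0.974.

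Summed over Apoe, Apoc1, Clu and Apod, the apolipoprotein level was 726 ± 113 FPKM in AST, 11447 ± 1783 in A-iSC, 5090 ± 129 in P56-NSC and 464 ± 54.9 in P0-NSC (SD, n = 3). Apoe made up 81.0 ± 2.0% of the sum in AST and 95.1 ± 0.97% in A-iSC. In P56-NSC its share was 74.2 ± 1.3% and in P0-NSC 75.0 ± 5.8%. Clu gave 18.9 ± 2.0% in AST but 4.41 ± 1.0% in A-iSC, although its own level was higher there. Apod contributed 0.114% in AST and 0.0291% in A-iSC, against 5.00% in P56-NSC and 7.69% in P0-NSC. The shares of AST and A-iSC did not overlap for Apoe or Clu.

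**Figure D3:**
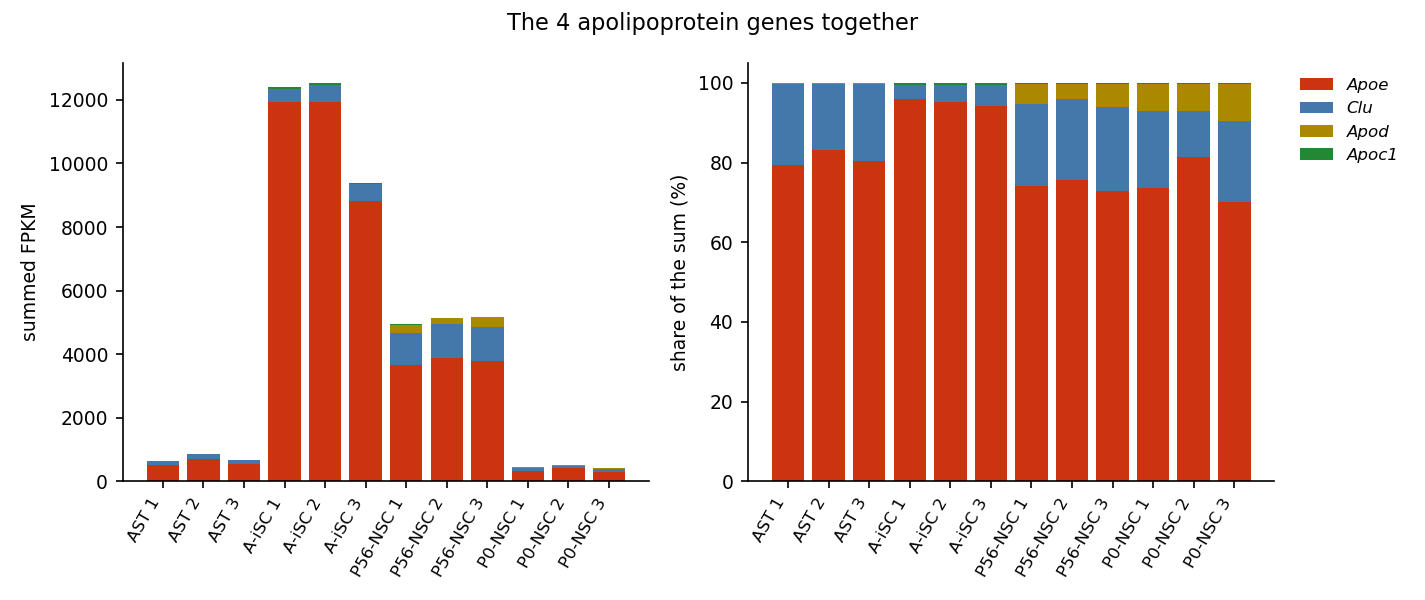
Left, FPKM of Apoe, Clu, Apod and Apoc1 stacked for each of the 12 libraries. Right, the share of each gene in that sum in percent. Apoe fills 95.1% of the sum on average in A-iSC, and Apod is visible in P56-NSC and P0-NSC, at 5.00% and 7.69%.

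Markers of several cell types moved with these genes. Of all tested genes, 28.1% were called higher and 30.8% lower in A-iSC than in AST. In A-iSC against AST, 13 of 13 microglia and macrophage markers were called higher, and their summed level went from 374 to 463 FPKM in AST to 3979 to 5371 FPKM in A-iSC. It was 1172 to 1270 FPKM in P56-NSC and 197 to 244 FPKM in P0-NSC, which is the order of groups seen for Apoe. Single markers did not all share this order. Against P56-NSC, 9 of the 13 were called higher in A-iSC and 2 lower, beside 31.5% and 31.3% of all tested genes. The 2 lower were P2ry12, at 7.30 ± 1.88 (A-iSC) and 60.2 ± 0.2 FPKM (P56-NSC), and Tmem119, at 16.8 ± 1.6 and 52.2 ± 2.4 FPKM. C1qa, a complement gene of microglia, measured 87.1 ± 14.1 FPKM (AST) and 1029 ± 192 FPKM (A-iSC; SD, n = 3). Of the 10 astrocyte markers, 9 were called higher in A-iSC than in AST and 0 lower. Gfap, the intermediate filament of astrocytes, went from 29.9 ± 2.3 to 969.99 ± 448 FPKM. Compared with P56-NSC, 2 of these 10 were called higher in A-iSC and 7 lower, beside 31.5% and 31.3% of all tested genes. Gfap was at 211 ± 15.4 FPKM in P56-NSC. Slc1a2 went the other way, at 23.0 ± 11.8 FPKM in A-iSC and 519 ± 28.5 FPKM in P56-NSC. The 8 fibroblast and mural markers fell from a sum of 1881 to 2267 FPKM in AST to 33.4 to 66.8 FPKM in A-iSC, with 4 of 8 called lower and 1 higher (2 higher under 11 alternatives, the replicate block among them). The part of these cell types in the differences of Apoe, Apoc1 and Clu was not tested.

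Markers of several cell types also differed along with Apod. The oligodendrocyte lineage markers summed to 18.3 to 20.3 FPKM in AST, with Mobp at 0 in all 3 libraries and 9 of 10 markers below 1 FPKM, and to 78.5 to 102 FPKM in A-iSC. P56-NSC held 11631 to 13261 FPKM of them. P0-NSC held 36.2 to 50.3 FPKM, below A-iSC, and its Apod level was 10.7-fold above A-iSC. Of the 10 markers, 6 were called higher and 3 lower in A-iSC than in P0-NSC, beside 32.6% and 34.7% of all tested genes. The 3 lower were Cldn11, Pdgfra and Mog, and Cnp alone was at 54.7 ± 11.5 FPKM in A-iSC and 10.3 ± 0.9 FPKM in P0-NSC (SD, n = 3). Genes of the choroid plexus, with Ttr foremost, summed to 1499.6 to 3187 FPKM in P56-NSC and 749.5 to 3849 FPKM in P0-NSC, against 5.04 to 9.20 FPKM in AST and A-iSC. Haemoglobin and other red cell genes summed to 359.99 to 565 FPKM in P56-NSC and 163 to 338 FPKM in P0-NSC, and to at most 0.548 FPKM in AST and A-iSC. Against P0-NSC, A-iSC was lower in 8 of 8 neuronal, 7 of 8 fibroblast and mural, and 6 of 6 endothelial markers. The fibroblast and mural markers summed to 186 to 196 FPKM in P0-NSC and the endothelial ones to 91.9 to 94.0 FPKM, against 33.4 to 66.8 and 12.9 to 14.8 FPKM in A-iSC. The part of these cell types in the Apod level was not tested.

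**Figure D4:**
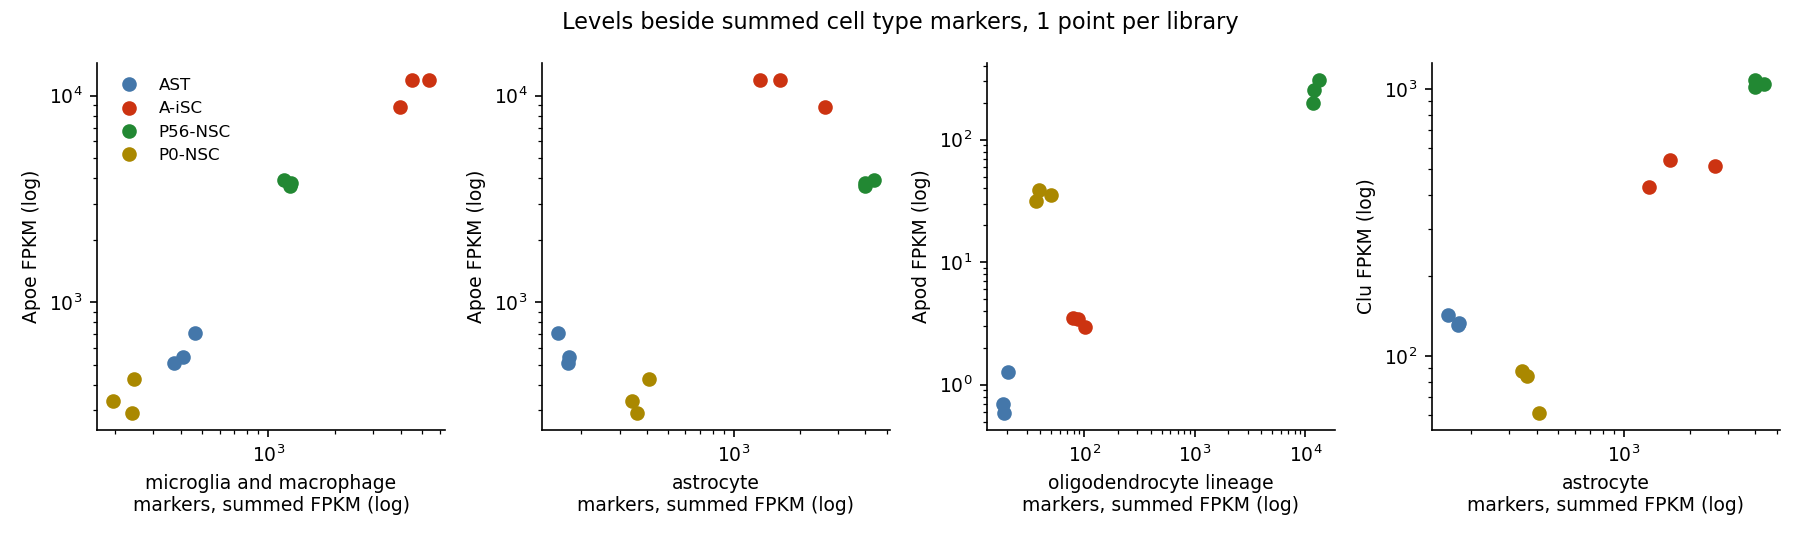
Level of Apoe, Apod or Clu (FPKM, log axis) against the summed FPKM of a marker list (log axis), 1 point per library, coloured by group. Apoe is highest where the summed microglia and macrophage markers are, in A-iSC. Apod lies above A-iSC in P0-NSC, where the summed oligodendrocyte lineage markers are 36.2 to 50.3 FPKM.

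Genes that act with the apolipoproteins and exporters were read from 7 lists, and the counts compare A-iSC with AST unless another pair is named. Between A-iSC and AST, 58.9% of all tested genes were called (28.1% higher, 30.8% lower). In the list of liver X receptors, their partners and targets, 9 of 15 genes were higher and 1 lower, with a median log2 difference of 0.62. Nr1h3, the liver X receptor alpha, rose from 1.98 ± 0.24 to 5.84 ± 0.19 FPKM (difference 1.20, limma adjusted p = 7.22e-07). Nr1h2, the beta receptor, rose from 17.8 ± 1.0 to 29.9 ± 9.7 FPKM (difference 0.66, limma adjusted p = 0.0113), and without A-iSC 2 that call was lost (0.50, adjusted p = 0.0526). It was also lost with these 2 groups alone (adjusted p = 0.0699) and in the libraries high in long genes (0.10, adjusted p = 0.395). Rxra, their dimer partner, rose from 3.77 ± 0.60 to 10.8 ± 1.5 FPKM. Mylip, a ubiquitin ligase and liver X receptor target, rose from 1.25 ± 0.47 to 10.7 ± 2.2 FPKM (difference 2.38, limma adjusted p = 1.67e-07). The fatty acid desaturase Scd1 was the gene called lower in this list, at 53.6 ± 8.4 against 31.7 ± 9.2 FPKM (difference -0.76, limma adjusted p = 0.00254).

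Among lipoprotein receptors, 6 of 14 tested genes were higher and 4 lower (median 0.24). Lrp2, or megalin, fell from 15.3 ± 3.6 to 0.919 ± 0.078 FPKM (difference -3.06, limma adjusted p = 6.18e-09). The scavenger receptor Msr1, a macrophage gene, rose from 1.79 ± 0.19 to 12.5 ± 1.5 FPKM (difference 2.27, limma adjusted p = 5.36e-09). Trem2, a microglial receptor that binds lipids and apolipoproteins, rose from 0.712 ± 0.753 to 2.22 ± 0.57 FPKM (difference 0.98, limma adjusted p = 0.00583). In the libraries high in short genes alone, Trem2 was not called (0.41, adjusted p = 0.184). Lrp1, Lrp8 and Vldlr, which take up apolipoprotein E particles, were not called, with differences of 0.37 (95% interval -0.25 to 0.99), 0.12 (-0.09 to 0.33) and -0.002 (-0.34 to 0.33). Each of these 3 differences changed sign under at least 1 alternative, and each was called under at least 1.

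The other lipid transporters of the ABC family gave 6 higher and 1 lower of 13 tested (median 0.19), beside 58.9% of all tested genes called. Abcd2, a peroxisomal fatty acid transporter, rose from 0.610 ± 0.098 to 5.10 ± 1.62 FPKM (difference 1.89, limma adjusted p = 9.72e-07). Abcg2, a multidrug exporter, fell from 8.50 ± 1.48 to 1.35 ± 0.23 FPKM (difference -2.01, limma adjusted p = 5.89e-08). Abca7 and Abcg4, close relatives of Abca1 and Abcg1, rose by 0.77 (limma adjusted p = 0.000125) and 0.75 (limma adjusted p = 0.000214). Of 18 other apolipoprotein genes, 4 passed the filter and 3 of these were lower, 0 higher (median -1.04). Apoa2 fell from 8.42 ± 2.76 to 2.21 ± 0.33 FPKM (limma adjusted p = 0.000174), and Apol9b from 11.7 ± 2.4 to 5.27 ± 1.85 FPKM (limma adjusted p = 0.000891).

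Genes that remodel lipoproteins or handle sterol esters gave 7 higher and 2 lower of 10 tested (median 0.65). Lpl, lipoprotein lipase, rose from 6.72 ± 0.58 to 26.9 ± 5.4 FPKM (difference 1.84, limma adjusted p = 2.31e-06). Pla2g15, a lysosomal phospholipase, rose from 10.02 ± 0.50 to 30.9 ± 3.3 FPKM (difference 1.53, limma adjusted p = 7.14e-08). Lipg, endothelial lipase, fell from 6.04 ± 2.72 to 0.307 ± 0.110 FPKM (difference -2.34, limma adjusted p = 5.82e-06). Lcat, which esterifies cholesterol on glial particles, rose by 0.63 (limma adjusted p = 0.00251) and Pltp, the phospholipid transfer protein, by 0.67 (limma adjusted p = 0.00149). In the libraries high in long genes alone, Pltp was not called (0.35, adjusted p = 0.0577). Lpl and Pltp also stand in the liver X receptor list.

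In the list of sterol trafficking and oxysterol genes, 8 of 17 were higher and 7 lower (median 0.48). Gramd1b, which moves cholesterol from the plasma membrane to the endoplasmic reticulum, rose from 1.97 ± 0.21 to 6.08 ± 0.74 FPKM (limma adjusted p = 7.49e-07). Osbpl5 fell from 15.5 ± 0.7 to 5.05 ± 0.54 FPKM (limma adjusted p = 6.47e-08) and Stard5 from 9.66 ± 0.57 to 4.19 ± 0.23 FPKM (limma adjusted p = 4.20e-07). Among sterol supply genes, 0 of 14 were higher and 9 lower (median -0.60). Insig1, which holds back the activation of sterol synthesis, fell from 51.4 ± 1.5 to 19.6 ± 3.7 FPKM (difference -1.37, limma adjusted p = 5.83e-06).

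**Figure D5:**
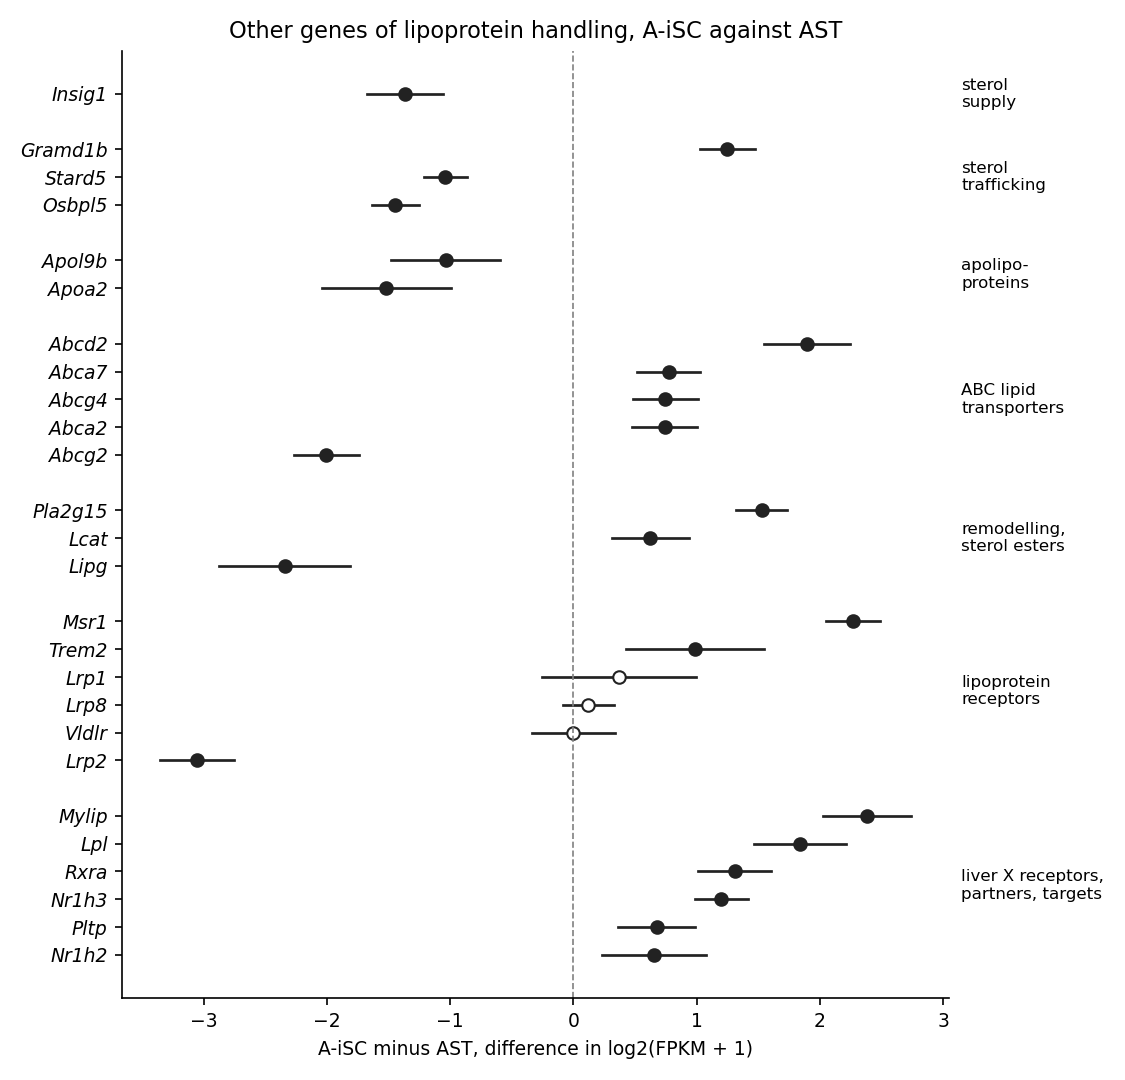
Difference in log2(FPKM + 1) between A-iSC and AST for named genes of the 7 lists, with 95% intervals from limma, grouped by list. Filled points were called and open points (Lrp1, Lrp8, Vldlr) were not. Insig1 and Lrp2 lie left of 0, and Mylip and Msr1 right of it.

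The same lists were read in the other comparisons. Of all tested genes, 74.1% were called in P56-NSC against AST and 74.2% in P0-NSC against AST. Liver X receptor genes were higher for 10 and lower for 3 of 15 in P56-NSC against AST, and higher for 5 and lower for 6 in P0-NSC against AST (lower for 3 with quantile normalization or with scaling by total reads). Scd1 was at 339 ± 27.3 FPKM in P56-NSC and 9.86 ± 0.71 FPKM in P0-NSC, a difference of 4.97 (limma adjusted p = 3.49e-10). Scd2 was at 1179.6 ± 96.7 FPKM in P56-NSC and 196 ± 20.7 FPKM in P0-NSC, a difference of 2.58 (limma adjusted p = 9.88e-07). Both desaturases make monounsaturated fatty acids. Abca2, a transporter abundant in oligodendrocytes, was at 78.0 ± 1.2 FPKM in P56-NSC, 14.2-fold above AST (limma adjusted p = 1.07e-10) and 7.97-fold above A-iSC (limma adjusted p = 1.39e-09). Cyp27a1, which makes an oxysterol that liver X receptors bind, was 50.7-fold higher in P56-NSC than in AST (limma adjusted p = 3.58e-09) and 14.0-fold higher than in P0-NSC (limma adjusted p = 3.72e-08).

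Remodelling genes and receptors were also compared between A-iSC and the groups P56-NSC and P0-NSC, where 62.9% and 67.3% of all tested genes were called. Of 10 remodelling genes tested, 5 were higher and 2 lower in A-iSC than in P56-NSC, and 9 were higher and 0 lower than in P0-NSC. The 2 lower became 0 with scaling by total reads, 1 with quantile normalization and 4 in the libraries high in long genes. Lpl was 53.5-fold higher in A-iSC than in P56-NSC (limma adjusted p = 1.09e-09), and Lipa, the lysosomal acid lipase, 8.25-fold (limma adjusted p = 3.88e-09). Nceh1, a cholesteryl ester hydrolase, was 12.8-fold higher in A-iSC than in P0-NSC (limma adjusted p = 7.59e-10). Of 14 receptor genes, 7 were higher and 4 lower in A-iSC than in P56-NSC, and 9 were higher and 2 lower than in P0-NSC. Scaling by total reads turned the 4 lower to 1. The 2 lower against P0-NSC became 1 with these 2 groups alone, with the replicate block and when any 1 library other than AST 2 or A-iSC 3 was left out. Cd36, a scavenger receptor for fatty acids and oxidized lipoproteins, was at 11.1 ± 1.8 FPKM in A-iSC against 0.200 ± 0.054 in P56-NSC (limma adjusted p = 6.45e-10) and 0.503 ± 0.214 in P0-NSC (limma adjusted p = 1.58e-09). Lrp8, the apolipoprotein E and reelin receptor of neurons, was at 26.0 ± 0.8 FPKM in P0-NSC and 6.30 ± 0.10 FPKM in P56-NSC (difference of P56-NSC from P0-NSC -1.88, limma adjusted p = 6.71e-09). The 8 neuronal markers summed to 774 to 945 FPKM in P0-NSC and 220.4 to 265 FPKM in P56-NSC, and their part in the Lrp8 level was not tested.

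In P56-NSC and P0-NSC against AST, 74.1% and 74.2% of all tested genes were called. Of 14 sterol supply genes, 7 were lower and 4 higher in P56-NSC than in AST, and 9 were lower and 1 higher in P0-NSC than in AST. With scaling by total reads the higher counts were 1 in P56-NSC and 4 in P0-NSC. The higher count in P0-NSC was also 2 with quantile normalization and 3 in the libraries high in short genes. In A-iSC against P56-NSC, where 62.9% of all tested genes were called, 9 were lower and 1 higher. Scaling by total reads turned this to 2 lower and 5 higher. Insig1 was at 50.1 ± 3.9 FPKM in P56-NSC, 2.56-fold above A-iSC (limma adjusted p = 5.47e-06). Cyp51, a demethylase of sterol synthesis, measured 59.8 ± 1.8 FPKM (AST) and 21.7 ± 0.4 FPKM (P0-NSC; difference -1.42, limma adjusted p = 6.25e-09). These comparisons again share libraries with the one of A-iSC and AST.

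Genes whose pattern over the 12 libraries was most like each of the 6 were found by Pearson's r of log2(FPKM + 1) with only genes averaging 10 FPKM or more in 1 group considered. The 12 points fall into 4 groups and share their libraries, so these values are descriptions. For Apoe they were Cyth4 (r = 0.996), Olfml3, Bin2, Arhgap45 and Rps6ka1, down to r = 0.99. Cyth4 went from 1.39 FPKM in AST to 14.97 FPKM in A-iSC and was at 6.52 FPKM in P56-NSC and 0.879 FPKM in P0-NSC. For Apoc1 they were Unc93b1 (r = 0.996), Cd83, Otulinl, Fcgr3 and C1ql1 (r = 0.992). Fcgr3, an Fc receptor of myeloid cells, went from 8.57 to 137 FPKM between AST and A-iSC. For Apod they were Sh3gl3 (r = 0.997), Ypel2, Spns2, Phactr3 and Tubb4a (r = 0.995), the last a tubulin that stood at 512 FPKM in P56-NSC and 8.03 FPKM in AST. For Clu they were Bcar3 (r = 0.995), Adssl1, Tsc22d4, Selplg and Hsd17b11 (r = 0.983). For Abca1 they were Plce1 (r = 0.979), Stat3, Bmpr1a, Il6st and Acp2 (r = 0.961). For Abcg1 they were Mxi1 (r = 0.993), Meig1, Lhfpl3, Syngr1 and Pcmtd2 (r = 0.971).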

How the data were processed

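RNA sequencing covered 12 libraries (4 groups of 3), from 3 µg of RNA each, per the labels' protocols, whose library kit carries no strand information. Titles gave the group and the replicate number. The authors deposited 1 table of FPKM values, normalized by them. The submitters' processing notes name Bowtie 0.12.2 with mm8 and mm9, while 54899 of 55154 identifiers shared with GENCODE M21 (99.5%) have GRCm38 coordinates. The counting tool was not stated in those notes. Multiplying FPKM by gene length recovered whole reads (tolerance 0.01) in 100% of cases, which served for depth, shares and an alternative test. Recovered sums were 0.821 to 1.34 times the totals implied by the FPKM scale. Entries lacking a gene name, 0.0957% to 0.156% of reads, were left out.

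The 15747 genes reaching 1 FPKM in 3 libraries or more were fitted on log2(FPKM + 1) by limma 3.58.1 (R 4.3.3), in 1 fit of 12 libraries without covariates, with Benjamini-Hochberg adjustment within each comparison. This fit was tested on simulated data. The members and gene lists were chosen with earlier results of these data known. Besides the 6 genes, names come from each list's called genes of largest difference with 5 FPKM or more in the higher group (up to 3 for A-iSC against AST, 2 elsewhere), a set of pathway genes always read, and the 5 genes of most similar pattern per member, leaving aside predicted genes, clones and pseudogenes. Not all are printed, and some genes are not reported here. Single marker genes were picked after their values were seen. Promoter windows from RefSeq were found for 3 of 6 genes. Python 3.11.15 was used for tables and plots.

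Alternatives were a pseudocount of 0.1, other filters, quantile normalization, scaling by total reads, limma-voom on recovered reads, 2 groups only, a replicate block, removal of a gene length trend and leaving out each replicate, plus 3 sets of libraries chosen after seeing the data.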

Additional observations from a re-analysis of the deposited data

How the results depend on the processing

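Each member's difference was recomputed under 24 alternatives, and 844 of 864 values kept their direction and their side of the threshold. Part of this was fixed in advance. Other filters, 2 groups only, the replicate block and leaving out a library outside the comparison cannot change a difference, only its adjusted p. All 6 genes stayed called in A-iSC against AST and in A-iSC against P0-NSC under every alternative. In the fit of all 12 libraries, 58.9% and 67.3% of all tested genes were called there. The number called was 5 to 6 in P56-NSC against AST, A-iSC against P56-NSC and P56-NSC against P0-NSC. It was 3 to 6 in P0-NSC against AST, where quantile normalization gave 3. Called shares of all tested genes in these comparisons, in the order named, were 74.1%, 62.9%, 69.2% and 74.2%. Quantile normalization called 11530 of 15747 tested genes in P0-NSC against AST. With a replicate left out, the mean summed apolipoprotein level ran from 661 to 768 FPKM in AST and from 10903 to 12476 FPKM in A-iSC. It ran from 5045 to 5164 FPKM in P56-NSC and from 434 to 488.5 FPKM in P0-NSC.

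Signs changed for differences that had not been called. Quantile normalization gave -0.10 for Apoc1 in P0-NSC against AST. Scaling by total reads gave 0.35 for Abcg1 in A-iSC against P56-NSC and -0.013 for Abca1 in P56-NSC against P0-NSC. Vldlr in A-iSC against AST was 0.16 with that scaling, 0.068 with voom on recovered reads, and -0.18 to 0.13 when a replicate was left out. In library sets chosen after seeing the data, Vldlr was 0.068 (libraries high in short genes) and 0.24 (libraries high in long genes), and without AST 2 and A-iSC 3 Lrp1 was -0.21 and Lrp8 -0.035. The cause was not tested. Of 2226 recomputed values for named pathway genes, 2205 kept direction and side of the threshold. Here too, some alternatives could not change the difference.

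Several list counts in A-iSC against AST moved by over 1.5 times. Without the filter on low values, 6 other apolipoproteins were lower and 2 higher (3 and 0 with it). With a filter at 5 FPKM, 3 ABC transporters were higher (6 before). The lower calls ranged from 1 to 3 for ABC transporters, 0 to 2 for liver X receptor genes and 1 to 2 for remodelling genes. Quantile normalization gave 1 higher sterol supply gene (0 before). Among markers, lower calls reached 2 for neurons (1 before) and 3 for choroid plexus (0 before), and higher calls 2 for fibroblasts and mural cells (1 before) and 2 for endothelium (0 before). Depth limits Apoc1, which rested on 5 to 11 reads per AST library.

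Scaling by total reads shifted the median of all genes by 0.18 in A-iSC against AST, -0.28 in P56-NSC against AST, 0.24 in P0-NSC against AST, 0.44 in A-iSC against P56-NSC and -0.51 in P56-NSC against P0-NSC. Under it, 61.1% of called genes were higher in A-iSC against AST, 38.1% in P56-NSC against AST, 59.0% in P0-NSC against AST, 74.1% in A-iSC against P56-NSC and 26.4% in P56-NSC against P0-NSC. The deposited scale gave 47.7%, 50.1%, 48.4%, 50.1% and 51.0%.

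In A-iSC against AST the deviations of same-numbered libraries correlated at -0.39, 0.34 and 0.44 for numbers 1, 2 and 3. Not every pair deviated together, and the numbers were not taken as pairs. The correlations with gene length in AST and A-iSC had the same pattern of signs. They were 0.36 and -0.28 for number 1, -0.45 and -0.23 for number 2, and 0.39 and 0.33 for number 3. Pairing apart from that trend was not tested. The fit with a replicate block kept 6 of 6 calls in A-iSC against AST, with an adjusted p of 0.00472 for Abca1. It called 9149 of 15747 tested genes in that comparison, and changed no member's call in the other comparisons.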

Other observations

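Several apolipoproteins best known from liver and gut were at or near 0 in these libraries and did not reach the filter for testing. Apoa4 had 0 reads in all 12 libraries, and Apob, a structural protein of plasma lipoproteins, was at most 0.0261 FPKM in any of them. Apom, a carrier of sphingosine 1-phosphate, had reads in 11 libraries and reached 0.734 FPKM in 1 P0-NSC library. Apoc3 was highest in P56-NSC, with a mean of 0.75 FPKM.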
